A study of Rattus norvegicus with 2 samples.

Results

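The miR-30 family was described in small RNA libraries of exosomes from neonatal rat cardiomyocytes. Earlier results of these data were known when its rows were chosen. The choice was by name, as every row of the count table named miR-30a to miR-30f in either arm. There were 11 such rows of 635 in all. They comprised 5 rows of the 5p arm, which is taken as the guide arm, and 6 rows of the 3p arm, which is taken as the passenger arm. No row was named miR-30f.

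Cardiomyocytes were isolated from neonatal Wistar rats aged 1 to 2 days, enriched by differential adhesion and plated with 0.1 mM bromodeoxyuridine, which limits dividing cells. Serum-starved cells then received no treatment or 1 μmol/L angiotensin II (Ang II), a peptide that induces hypertrophy, for 48 h. Exosomes, small vesicles of the endocytic pathway, were taken from the medium with a precipitation reagent. The normal cells gave NC-Exo and the hypertrophic cells gave HC-Exo, with 1 library for each, so that no difference between them has a replicate check. The number of rats and cultures behind a library is not given in the sources used here.

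The miRNA rows summed to 102608 reads in NC-Exo versus 133155 in HC-Exo. The 7 muscle miRNAs used as markers were all detected and took 16.9% of the reads in NC-Exo versus 18.4% in HC-Exo. This share rests mostly on miR-1a-3p, with 16614 of the 17336 muscle reads in NC-Exo versus 23271 of 24544 in HC-Exo. Markers of other cells were present too. The 2 arms of the endothelial miR-126a took 9.11% and 6.68%, the 5 smooth muscle and fibroblast miRNAs 3.83% and 3.91%, and the blood cell list, with 5 of its 6 miRNAs listed and miR-144-3p not listed, 0.153% and 0.198%. Rows within a sum could move in opposite directions. Relative to the library totals, miR-126a-5p was lower in HC-Exo, with 8875 and 8185 reads. The other arm, miR-126a-3p, was higher, with 474 and 712 reads (adjusted p = 0.0572 by the exact binomial test described below). In the smooth muscle and fibroblast list, 3 rows were higher and 1 lower at an adjusted p under 0.05 by that test. The part of these other cells in the miR-30 values was not tested. Fewer vesicles of a cell type and less miRNA per vesicle cannot be told apart in such libraries.

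A miRNA hairpin yields a 5p and a 3p strand, of which one is usually kept in an Argonaute protein and the other is degraded. The kept strand recognises its target mRNAs mainly through the seed, bases 2 to 8 from its 5′ end. The miR-30 family is abundant in heart muscle, where miR-30c is known to repress connective tissue growth factor and miR-30a the autophagy protein Beclin 1. Its hairpins lie in pairs in the genome. In the rat gene list each of the 6 hairpin genes had 1 other miRNA gene nearby, which joined Mir30a with Mir30c2, Mir30b with Mir30d, and Mir30e with Mir30c1.

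Rat mature sequences were matched by name in RefSeq (GRCr8) for 6 of the 11 rows, and they are shown because the seed and the arm divide the values that follow. The seed is in capitals. Sequences of miR-30b-5p, miR-30b-3p, miR-30d-5p, miR-30d-3p and miR-30e-3p are not shown. The 5p arms were
miR-30a-5p: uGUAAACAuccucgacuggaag
miR-30e-5p: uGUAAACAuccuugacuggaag
miR-30c-5p: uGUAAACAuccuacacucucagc

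The 3p arms were
miR-30a-3p: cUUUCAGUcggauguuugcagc
miR-30c-1-3p: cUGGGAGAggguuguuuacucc
miR-30c-2-3p: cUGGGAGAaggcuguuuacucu

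All 3 of these 5p arms shared their first 12 bases and so the seed GUAAACA. Counted from the 5′ end, miR-30e-5p differed from miR-30a-5p by the single substitution C13U, whereas miR-30c-5p differed from miR-30a-5p at 5 of the positions they share. The 3p arms shown fell into 2 seeds, UUUCAGU for miR-30a-3p and UGGGAGA for both miR-30c-1-3p and miR-30c-2-3p. These last 2 differed from each other by G9A, U12C and C22U. Seeds of the other 3p rows were not checked. Of 693 rat mature sequences searched, 1 outside the family had the seed of the 5p arms, miR-384-5p, and the count table has no row of that name. No sequence outside the family had either of these 3p seeds. The rows carry mouse names (such as mmu-miR-30a-5p, mmu-miR-30a-3p, mmu-miR-30e-5p and mmu-miR-30e-3p), although the cells were from rat, and the prefix is left out elsewhere. How the counting handled reads that could fall on both miR-30a-5p and miR-30e-5p was not tested. Such reads may have been divided between these rows or counted in full on each, so the separate values are uncertain. Identical counts did occur under different names. Both let-7a-1-3p and let-7c-2-3p had 230 reads in NC-Exo versus 243 in HC-Exo. Any read counted on miR-30a-5p and on miR-30e-5p would enter the sum of the 5p rows from each.

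The hairpins show how the arms are joined. In the rat hairpins of Mir30a and Mir30c2, which lie next to each other, the 2 mature arms are in capitals.
Mir30a hairpin: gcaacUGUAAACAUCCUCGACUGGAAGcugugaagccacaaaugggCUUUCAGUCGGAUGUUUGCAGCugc
Mir30c2 hairpin: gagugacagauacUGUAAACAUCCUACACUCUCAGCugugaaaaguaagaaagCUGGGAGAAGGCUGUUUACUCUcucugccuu

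The hairpin of Mir30c1 gives the same mature miR-30c-5p, so reads of miR-30c-5p cannot be assigned to one of these hairpins, while each 3p arm has a sequence of its own.

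All 11 rows together held 934 reads in NC-Exo versus 1434 in HC-Exo, which is 0.910% of the miRNA reads (95% exact interval 0.853 to 0.970%) and 1.08% (1.02 to 1.13%). The 5p rows held 653 and 942 of these reads and the 3p rows 281 and 492. Levels are given as reads per 1000000 miRNA reads (RPM), where 1 read stands for 9.75 RPM in NC-Exo versus 7.51 in HC-Exo. Intervals cover counting error only, as each condition has 1 library. They may be too narrow even for that, since PCR copies of a molecule are counted as separate reads. The 6 mature sequences shown have 22 or 23 bases, and lengths of the other 5 rows were not checked. Levels are compared as reads, with no correction for length, and how well each sequence was captured was not measured.

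The most abundant row was mmu-miR-30c-5p, the mature form shared by both miR-30c hairpins. It had 254 reads in NC-Exo versus 371 in HC-Exo, which is 2475 RPM (2181 to 2799) and 2786 RPM (2510 to 3084). In NC-Exo it ranked 49 of the 635 rows by reads, with rank 50 in HC-Exo. The rows nearest to it in log2 RPM over both libraries were miR-484, with 249 and 371 reads, miR-28a-3p, with 254 and 402, and miR-99b-5p, with 242 and 406. With 2 libraries this likeness says only that the levels were close.

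Below it stood 4 rows of the next rank. These were miR-30a-5p, with 149 reads in NC-Exo versus 194 in HC-Exo, miR-30a-3p, with 130 and 228, miR-30d-5p, with 126 and 196, and miR-30e-3p, with 112 and 216. Their levels ran from 1092 to 1452 RPM in NC-Exo. In HC-Exo they ran from 1457 to 1712 RPM. Each overlapped its neighbours in counting interval, and in both libraries all 4 were below the interval of miR-30c-5p. A pair of 3p rows thus stood beside the 5p rows of miR-30a and miR-30d.

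Lower levels were measured for miR-30e-5p, with 63 reads in NC-Exo versus 70 in HC-Exo, and for miR-30b-5p, with 61 and 111. In NC-Exo these levels of 614 and 594 RPM did not differ beyond counting error. In HC-Exo miR-30b-5p had 834 RPM (686 to 1004) and miR-30e-5p 526 (410 to 664), and these intervals did not overlap. The row of miR-30d-3p had 21 and 38 reads, or 205 and 285 RPM. The rarest rows were miR-30c-2-3p, with 13 and 2 reads, miR-30c-1-3p, with 3 and 2, and miR-30b-3p, with 2 and 6. In HC-Exo these 3 were not separated by their intervals.

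**Figure D1:**
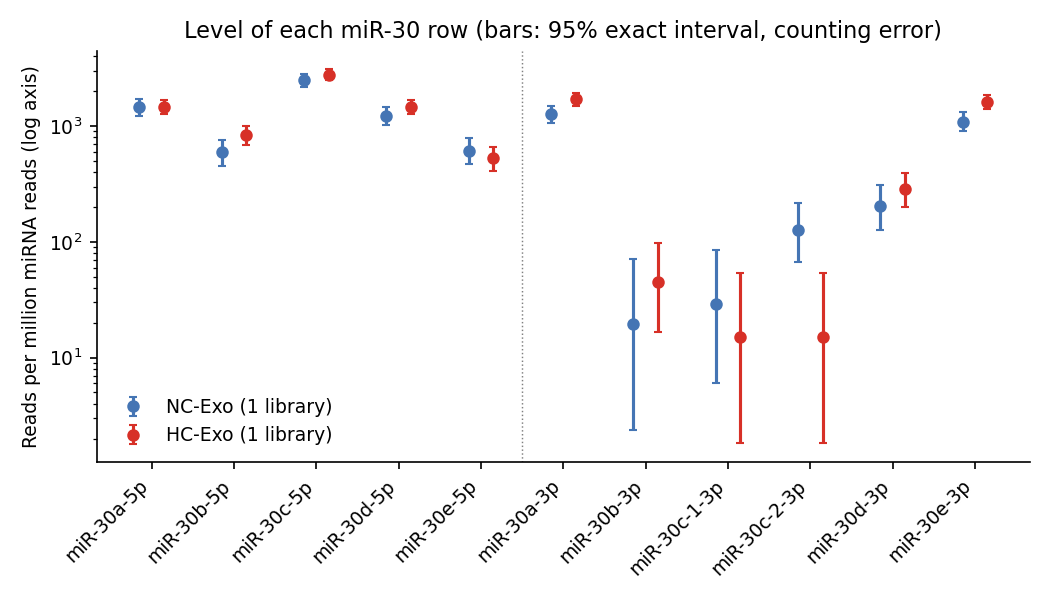
Level of each miR-30 row in reads per 1000000 miRNA reads on a log axis, for the NC-Exo and the HC-Exo library, with 5p rows left and 3p rows right of the dotted line and bars giving the 95% exact counting interval. The highest points belong to miR-30c-5p, with 2475 and 2786 RPM, and the points of miR-30c-2-3p lie apart from each other, at 127 and 15 RPM.

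Among the 5p reads alone, miR-30c-5p led in both libraries, followed by miR-30a-5p and miR-30d-5p at shares that did not differ beyond counting error. The largest share was that of miR-30c-5p, with 38.9% of 653 reads in NC-Exo (95% exact interval 35.1 to 42.8%) versus 39.4% of 942 in HC-Exo (36.2 to 42.6%). The share of miR-30a-5p was 22.8% and 20.6%, and that of miR-30d-5p 19.3% and 20.8%. Smaller shares were those of miR-30e-5p, with 9.65% and 7.43%, and miR-30b-5p, with 9.34% and 11.8%. These shares do not depend on how the libraries are scaled. For each of the 5 members the odds ratio of HC-Exo over NC-Exo had an interval that held 1, with the lowest value for miR-30e-5p, 0.752 (95% exact conditional interval 0.518 to 1.09), and the highest for miR-30b-5p, 1.30 (0.922 to 1.83). A change in the make-up of the 5p arms was therefore not detectable at this depth, and the intervals allow changes in odds of that size.

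**Figure D2:**
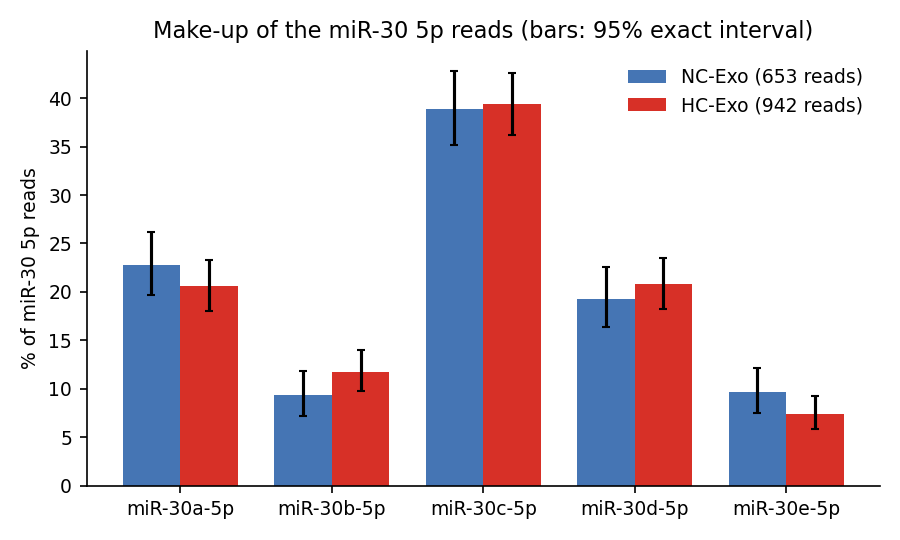
Share of each member among the miR-30 5p reads, in percent, in NC-Exo (653 reads) and HC-Exo (942 reads), with 95% exact intervals as error bars. The pairs of bars overlap in their intervals for all 5 members, and miR-30c-5p is the largest with 38.9% and 39.4%.

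The arms were then compared within each hairpin name. The 5p arm is commonly named as the guide of the miR-30 hairpins. It was the more abundant arm for miR-30b, miR-30c and miR-30d in both libraries, but not for miR-30e. Of the reads of both miR-30e arms, the 3p arm took 64.0% in NC-Exo (56.4 to 71.1%) versus 75.5% in HC-Exo (70.1 to 80.4%). For miR-30a the arms were nearly equal, with 46.6% of 279 reads on the 3p arm in NC-Exo (40.6 to 52.6%) versus 54.0% of 422 in HC-Exo (49.1 to 58.9%), and both intervals held 50%.

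The other hairpins gave few 3p reads. The 3p share was 14.3% for miR-30d in NC-Exo (9.07 to 21.0%) versus 16.2% in HC-Exo (11.8 to 21.6%). It was 3.17% and 5.13% for miR-30b, from 2 and 6 reads of the 3p arm. For miR-30c, with its 2 rows of the 3p arm summed, it was 5.93% in NC-Exo (3.42 to 9.45%) versus 1.07% in HC-Exo (0.291 to 2.71%). When 50% of the miR-30c-5p reads were taken as the partner of miR-30c-2-3p alone, because both miR-30c hairpins give this 5p arm, the 3p share was 9.29% in NC-Exo, with the HC-Exo value again at 1.07%. Over the 5 hairpin names, the 3p share ran from 3.17% for miR-30b to 64.0% for miR-30e in NC-Exo, and from 1.07% for miR-30c to 75.5% for miR-30e in HC-Exo.

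Among 74 other hairpin names with both arms listed and at least 100 reads over both arms and libraries, the rarer arm had a median share of 4.16% in NC-Exo versus 4.63% in HC-Exo. A pair of names with the same reads on both arms was counted once, and 5 of the 74 share the counts of 1 arm with another name. In NC-Exo 2 of the 74 divided their reads at least as evenly as miR-30a, the nearest above it being miR-296, with 47.4% on its rarer arm, and the nearest below miR-532, with 41.7%. In HC-Exo 3 of the 74 did, with miR-361 at 46.7% just above and miR-542 at 39.0% just below. The rarer arm of miR-30e was the 5p arm, with 36.0% in NC-Exo versus 24.5% in HC-Exo, and 5 and 11 of the 74 were at or above it. The share of miR-30b was near the median of these hairpins in both libraries.

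**Figure D3:**
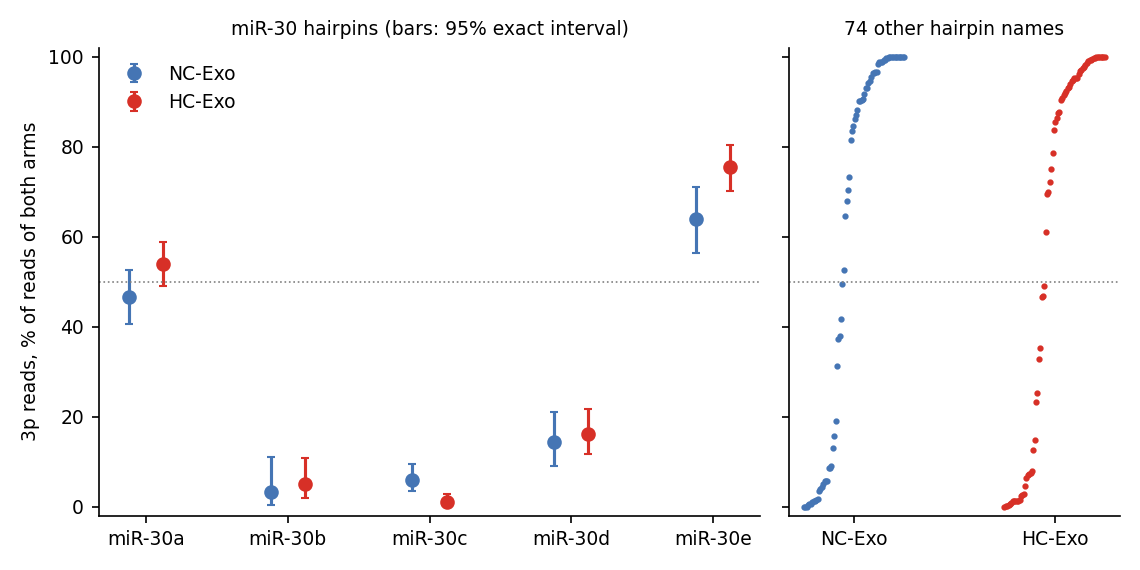
Left, share of the 3p arm among the reads of both arms for each miR-30 hairpin name, in percent, with 95% exact intervals, in NC-Exo and HC-Exo. Right, the same share for 74 other hairpin names, 1 point each, sorted within each library. Most other names lie near 0 or 100%, while miR-30a lies at 46.6% and 54.0% and miR-30e at 64.0% and 75.5%.

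The 3p share of miR-30e was higher in HC-Exo, with an odds ratio of 1.73 (95% exact conditional interval 1.13 to 2.67). For miR-30a the odds ratio was 1.35 (0.983 to 1.85), for miR-30d 1.16 (0.632 to 2.19) and for miR-30b 1.64 (0.283 to 17.1), and these intervals held 1. For miR-30c it went the other way, with 0.172 (0.0413 to 0.540). This value rests on 16 reads of the 3p arm in NC-Exo versus 4 in HC-Exo. Of these, 13 and 2 were reads of miR-30c-2-3p, whose change in these libraries was already known. The miR-30c odds ratio and its interval are therefore a description only. Since reads of miR-30a and miR-30e could be exchanged by the counting, the 2 hairpins were also pooled, a choice made after the values were seen. Pooled, the 3p arm took 53.3% of the reads in NC-Exo versus 62.7% in HC-Exo, an odds ratio of 1.47 (1.15 to 1.88). Pooling does not correct for reads counted on both names, which would make this interval too narrow.

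Such shifts were not particular to the family. Of 47 other hairpin names with at least 10 reads on each arm, 6 had an interval of the odds ratio above 1 and 9 below 1. The median odds ratio was 0.854, and 11 of the 47 had an odds ratio at least as high as that of miR-30e. Over all other rows named by arm, the 3p share was 54.3% in NC-Exo versus 56.6% in HC-Exo.

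HC-Exo was next compared with NC-Exo row by row, which asks whether the 2 libraries differ. Counts were scaled by the library totals, and the log2 fold change of HC-Exo over NC-Exo (log2FC) was taken. All 340 miRNAs whose reads in both libraries summed to 10 or more were put to a two-sided exact binomial test, adjusted by the Benjamini-Hochberg method. It compares these libraries and not the conditions. Of the 11 members, 9 could be tested. Of these, 1 had an adjusted p under 0.05 together with a change of at least 2-fold (a log2FC of 1 or more in size), miR-30c-2-3p, which was lower in HC-Exo. It met the minimum of reads only through NC-Exo, where it was high, so nothing is read from this 1 of 9. When 10 reads in each library were required it was not tested, and 0 members were called. Among all miRNAs tested, 2.06% were called lower in this way, and 2.65% higher, with no member among the latter. By the fold limit alone, this member was again the only one of the 9 to pass, against 4.12% of all miRNAs tested in the lower direction and 11.5% in the higher. By the adjusted p alone, 2 members had an adjusted p under 0.05 and were higher in HC-Exo, against 13.8% of all miRNAs tested, and 1 was lower, against 8.53%.

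The 2 higher members were the 3p arms of miR-30e and miR-30a. Whether these 2 rows share reads was not tested. The reads of miR-30e-3p went from 112 to 216, or from 1092 to 1622 RPM, a log2FC of 0.57 (95% exact binomial interval 0.24 to 0.91, adjusted p = 0.00533 by the exact binomial test). Those of miR-30a-3p went from 130 to 228, or from 1267 to 1712 RPM, a log2FC of 0.43 (0.12 to 0.76, adjusted p = 0.0329 by the exact binomial test). The adjusted p of miR-30e-3p stayed under 0.05 under all 5 other scalings tried, from 0.00687 to 0.0412 by the exact binomial test. That of miR-30a-3p passed 0.05 under 3 of the 5, TMM, upper-quartile and median scaling, and was at most 0.166 by the exact binomial test. Both differences were under 2-fold, so neither row was called. The spread between cultures could not be measured. With a spread of 0.1 assumed (as a coefficient of variation), the adjusted p of miR-30e-3p was 0.244 in edgeR's exact test.

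The row of mmu-miR-30c-2-3p had 13 reads in NC-Exo versus 2 in HC-Exo, or 127 and 15 RPM. HC-Exo thus held 0.119 times the level of NC-Exo (95% exact binomial interval 0.0130 to 0.524), a log2FC of -3.08 (-6.27 to -0.93, adjusted p = 0.00697 by the exact binomial test). With the HC-Exo library set at 3 reads, the log2FC was -2.49. The row met the minimum of reads only through NC-Exo, so its p and the size of its ratio are a description only. With 5 reads added to both libraries the log2FC was -1.74. When a biological coefficient of variation of 0.1 was assumed, edgeR's exact test gave it an adjusted p of 0.161.

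Other rows of the miR-30c hairpins and their neighbour were set beside it. The 5p partner miR-30c-5p had a log2FC of 0.17 (-0.06 to 0.41, adjusted p = 0.332 by the exact binomial test). Against it, the odds of a miR-30c-2-3p read in HC-Exo were 0.106 times those in NC-Exo (95% exact conditional interval 0.0115 to 0.473). Against miR-30a-3p, from the neighbouring hairpin, they were 0.0882 times (0.00952 to 0.399). The row of miR-30c-1-3p, with the same seed, had 3 reads and 2 reads, too few to be tested, and its log2FC of -0.96 had an interval from -4.54 to 2.17. Since miR-30c-2-3p has drawn notice for its change in these same libraries, such differences from its partners are a description.

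Of the 5p rows, 0 passed the adjusted threshold of the exact binomial test, and 1, miR-30b-5p, had an unadjusted p under 0.05 (0.0376 by that exact test). The count of miR-30b-5p was 61 in NC-Exo versus 111 in HC-Exo, a log2FC of 0.49 (0.02 to 0.96, adjusted p = 0.125 by the exact binomial test). Its neighbour miR-30d-5p, a miRNA also studied in the circulation in heart failure, had a log2FC of 0.26 (-0.07 to 0.60, adjusted p = 0.275 by the exact binomial test). For miR-30a-5p the log2FC was 0.00 (-0.31 to 0.32, adjusted p = 1 by the exact binomial test), and its sign turned negative under each of the 5 other scalings. That of miR-30e-5p was -0.22 (-0.74 to 0.29, adjusted p = 0.590 by the exact binomial test), opposite in sign to its 3p arm. Of the remaining 3p rows, miR-30d-3p had a log2FC of 0.48 (-0.33 to 1.32, adjusted p = 0.449 by the exact binomial test), and miR-30b-3p, with 8 reads in all, was not tested.

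**Figure D4:**
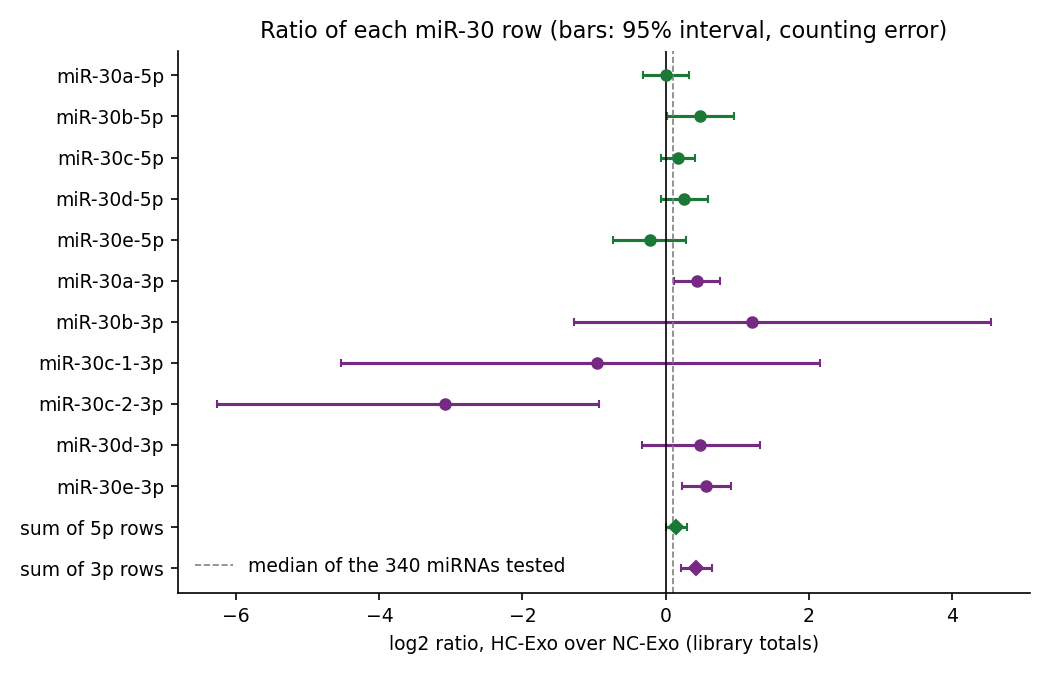
Log2FC (HC-Exo over NC-Exo) for each miR-30 row and for the sums of 5p and 3p rows, scaled by library totals, with 95% counting intervals. Green marks 5p rows, purple marks 3p rows, and the dashed line is the median of the 340 miRNAs tested, 0.10. The interval of miR-30c-2-3p lies wholly below 0, and those of miR-30a-3p, miR-30e-3p and miR-30b-5p lie above 0.

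The median log2FC of the 9 members tested was 0.26, beside 0.10 over all 340 tested, and 7 of the 9 were above 0, against 56.2% of all miRNAs tested. Summed, the 5p rows had a log2FC of 0.15 (0.01 to 0.30) and the 3p rows one of 0.43 (0.22 to 0.65). The reads of miR-30a-3p and miR-30e-3p made up 242 of the 281 3p reads in NC-Exo versus 444 of the 492 in HC-Exo, so the summed 3p value rests on this pair. Any read counted on both rows of the pair would enter the sum from each. The share of 3p reads among all miR-30 reads was 30.1% in NC-Exo (27.2 to 33.1%) versus 34.3% in HC-Exo (31.9 to 36.8%), an odds ratio of 1.21 (1.01 to 1.46) that needs no scaling of the libraries. Without miR-30c-2-3p, whose change in these libraries was already known, the odds ratio was 1.27 (1.06 to 1.52). Leaving out a 3p row that was lower in HC-Exo raises the ratio by construction, so this is no check of it. With upper-quartile scaling, which lowers every log2FC by 0.12, the summed 5p rows had a log2FC of 0.03.

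**Figure D5:**
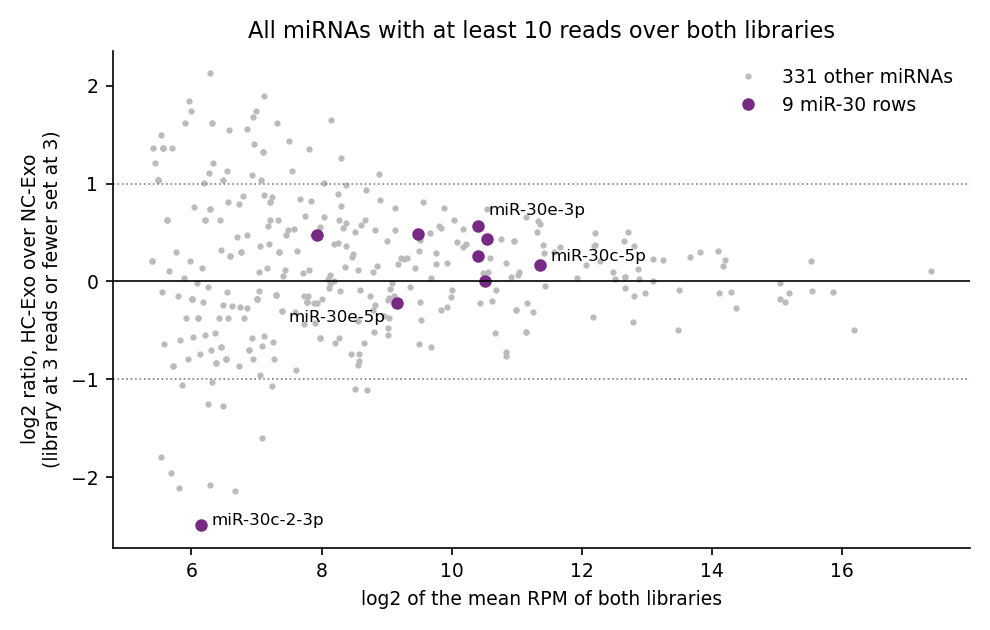
Log2FC (HC-Exo over NC-Exo) against the log2 of the mean RPM for the 340 miRNAs with 10 or more reads in total, with a library at 3 reads or fewer set at 3 reads. The 9 miR-30 rows are purple, and the dotted lines mark log2FCs of 1 and -1. Only miR-30c-2-3p of the 9 lies outside these lines, at -2.49.

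The summed 5p rows were set beside the guide arms of 3 other families. The let-7 family, with 11 rows, took 18.3% of the reads in NC-Exo versus 17.4% in HC-Exo, a log2FC of -0.07 (-0.10 to -0.04). Its rows went both ways, with log2FCs from -0.26 to 0.56. Whether these rows share reads was not tested. Any read counted on several of them would make the intervals of this family too narrow. The odds of a miR-30 read against a let-7 read were 1.17 times higher in HC-Exo (95% exact conditional interval 1.05 to 1.29). The miR-29 family, 3 miRNAs known to repress collagens, had 179 and 284 reads, and the odds ratio of miR-30 against it was 0.909 (0.731 to 1.13). The miR-26 family had only 49 and 106 reads, and the odds ratio was 0.667 (0.458 to 0.959). In abundance, the miR-30 guide arms, with 0.636% of the reads in NC-Exo versus 0.707% in HC-Exo, thus stood between the let-7 and the miR-29 families.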

How the data were processed

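The authors deposited raw read counts per mature miRNA for 1 NC-Exo and 1 HC-Exo library (102608 and 133155 reads). The submitters' processing notes name Bowtie2 and the mouse builds mm9 and GRCm38. Trimming, annotation and the handling of reads with several matches are not given in the sources used here. The authors also deposited a normalized signal, the count times 12.1 in NC-Exo and 9.23 in HC-Exo, which was used as an alternative scaling. A table of their own comparison, with fold changes and p-values, was not used.

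Counts were scaled by library totals. A two-sided exact binomial test was run on the 340 miRNAs with 10 or more reads in total, and adjusted by the Benjamini-Hochberg method. Calls required an adjusted p under 0.05 and a change of 2-fold or more, taking 3 reads where a library had fewer. Ratios of the members are given from the reads as counted. With 1 library per condition, models that estimate a spread could not be fitted. Shares have 95% exact (Clopper-Pearson) intervals, and odds ratios exact conditional intervals. The script was tested on simulated data. Alternatives used edgeR 4.0.16 and DESeq2 1.42.0 size factors in R 4.3.3 and the rest Python 3.11.15 with scipy 1.17.1. The members, lists and comparisons were chosen with earlier results of these data known. All members were named, and of other rows the 3 nearest in level to the most abundant member, the hairpins next to a member in arm share, miRNAs of the same seed, and 3 families as sums. Mature sequences were read from RefSeq (GRCr8), and no coordinates are given because the builds differ.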

Additional observations from a re-analysis of the deposited data

How the results depend on the processing

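No paired analysis was possible because each condition has a single library, which also left no replicate to omit. Only counting error was measured, and rows under 10 reads in total were not tested.

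Of all miRNAs, 9 were called higher and 7 lower. Upper-quartile scaling gave 5 higher, and a minimum of 50 reads over both libraries gave 5 higher and 2 lower. A minimum of 10 reads in each library gave 2 lower. Without the log2 limit there were 47 higher and 29 lower, since this limit is looser. When edgeR's exact test was run at coefficients of variation set to 0.1, 0.2 and 0.4, it gave 0 higher and 0 lower, and 55, 20 and 1 had an unadjusted p under 0.05. Of the miR-30 members, 1 was called lower and 0 higher by the exact binomial test, which found 2 higher without the log2 limit. The members called lower were 0 with 10 reads in each library or 50 over both, which leave miR-30c-2-3p untested, and 0 under each assumed coefficient, where its unadjusted p by edgeR's exact test was 0.00141, 0.0118 and 0.0418. The other counts of members called were unchanged.

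The log2FC of miR-30a-5p turned to -0.064 with TMM, -0.12 with upper-quartile scaling, -0.023 with DESeq2's size factors, -0.094 with the median of miRNAs of at least 100 reads set to 0, -0.0085 with the authors' normalized values and -0.0061 with 5 reads added. The other members kept their sign under every scaling and pseudocount tried. The log2FC of the summed 5p rows ranged from 0.03 to 0.15.

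With all miR-30 rows as the denominator, by construction, shares in NC-Exo and HC-Exo were 16.0% and 13.5% for miR-30a-5p, 6.53% and 7.74% for miR-30b-5p, 27.2% and 25.9% for miR-30c-5p, 13.5% and 13.7% for miR-30d-5p, and 6.75% and 4.88% for miR-30e-5p. Pooling miR-30a with miR-30e, chosen after the values were seen, gave 3p shares of 53.3% in NC-Exo and 62.7% in HC-Exo, which lie between those of the 2 hairpins. Taking 50% of the miR-30c-5p reads as the partner of miR-30c-2-3p moved the 3p share in NC-Exo from 5.93% to 9.29%, and left 1.07% in HC-Exo. Pseudocounts of 0.5 and 5 reads moved no share beyond its interval.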
